A study of Mus musculus with 6 samples.

Results

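Tropomyosins and muscle-type contractile regulators are 10 of the 26529 genes listed in the table, chosen by symbol: the tropomyosins Tpm1, Tpm2, Tpm3 and Tpm4, the RING finger protein Trim54, the transgelins Tagln and Tagln2, the caldesmon gene Cald1 and the calponins Cnn2 and Cnn3. They were picked with the difference between osteoclasts and precursors already known, so that difference is given here as a description. The fit over all genes included those that passed its filter on low values, and its calls for them are given once, as counts, without p-values. RNA was sequenced from 3 osteoclast libraries (OC) and 3 osteoclast precursor libraries (OCP). Both groups came from bone marrow-derived macrophages of wild-type C57BL/6 mice aged 8 weeks, and both were kept in macrophage colony-stimulating factor (M-CSF, 20 ng/ml) and RANKL (10 ng/ml), which induces macrophages to become osteoclasts. The OC libraries were taken at day 6 and the OCP libraries at day 3, so neither group is free of RANKL. No label gives separate mice or cultures for the replicates, so spreads and p-values measure the differences between these libraries, which may be technical.

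Tropomyosins are coiled-coil proteins that lie end to end along the actin filament. In striated muscle they work with troponin to open and close the filament to myosin, and in other cells different tropomyosins mark different filaments and govern which myosins and severing proteins can reach them. Osteoclasts carry them in podosomes and in the actin ring that seals off the resorbed bone. Caldesmon, the calponins and the transgelins bind the same filaments, and Trim54, also known as MuRF3, binds microtubules and sarcomere proteins in striated muscle.

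The libraries held between 33219178 and 42121216 reads assigned to genes. All 10 osteoclast markers passed the test with a lower level in OC (summed level 2730 to 2815 RPKM in OC, against 5104 to 5261 RPKM in OCP), led by the protease gene Ctsk and the acid phosphatase gene Acp5. Of 8 macrophage markers 6 were higher in OC, led by the mannose receptor gene Mrc1 (tested only through OC) and the lipopolysaccharide co-receptor gene Cd14, and Cd68 and Csf1r were lower. The summed level of these 8, of which the lysozyme gene Lyz2 was the most abundant, was 8160 to 8683 RPKM in OC and 5190 to 5640 RPKM in OCP. The names OC and OCP are those of the sample titles, and the osteoclast markers and most of the macrophage markers run against them. The reason was not tested. Words such as rose and fell below mean higher and lower in OC and state no order of maturation. Both marker lists move with the differences described below, and their part in them was not tested. In bulk RNA, fewer cells of a type and less RNA per cell cannot be told apart.

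The 10 genes sit on 8 chromosomes, and 9 of them matched a RefSeq promoter window (GRCm38.p6), with 11 windows in all, each from 250 bases before to 50 bases after a transcription start. The 3 genes with the largest proportional deficits in OC among those that reached 1 RPKM in all 6 libraries (Tpm2, Trim54 and Cnn2) are shown with Tpm1, the next tropomyosin in size of difference. Sequences run 5′ to 3′ on the strand of the gene. Capitals mark the CArG box, the element bound by serum response factor (SRF), and the letters CATTCC on either strand, the element bound by TEAD factors, where GGAATG is CATTCC on the other strand.
Tpm2, chr4:43523505-43523804, minus strand: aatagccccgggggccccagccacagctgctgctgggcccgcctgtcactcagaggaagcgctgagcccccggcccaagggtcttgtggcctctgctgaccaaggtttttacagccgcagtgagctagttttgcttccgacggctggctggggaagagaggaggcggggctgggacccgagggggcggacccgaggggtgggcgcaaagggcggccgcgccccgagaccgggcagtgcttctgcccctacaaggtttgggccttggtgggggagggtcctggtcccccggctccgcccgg
Trim54, chr5:31116362-31116661, plus strand: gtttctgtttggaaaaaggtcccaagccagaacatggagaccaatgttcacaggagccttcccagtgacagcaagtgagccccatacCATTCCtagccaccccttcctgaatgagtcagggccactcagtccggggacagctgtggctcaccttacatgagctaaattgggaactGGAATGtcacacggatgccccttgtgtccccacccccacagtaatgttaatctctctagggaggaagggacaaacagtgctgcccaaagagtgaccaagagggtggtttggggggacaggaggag
Cnn2, chr10:79988350-79988649, plus strand: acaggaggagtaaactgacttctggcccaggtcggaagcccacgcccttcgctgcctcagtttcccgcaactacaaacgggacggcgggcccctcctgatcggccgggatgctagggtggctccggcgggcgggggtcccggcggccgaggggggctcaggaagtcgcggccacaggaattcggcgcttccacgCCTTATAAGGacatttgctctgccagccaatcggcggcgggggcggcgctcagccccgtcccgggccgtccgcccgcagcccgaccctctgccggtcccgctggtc
Tpm1, chr9:67049164-67049463, minus strand: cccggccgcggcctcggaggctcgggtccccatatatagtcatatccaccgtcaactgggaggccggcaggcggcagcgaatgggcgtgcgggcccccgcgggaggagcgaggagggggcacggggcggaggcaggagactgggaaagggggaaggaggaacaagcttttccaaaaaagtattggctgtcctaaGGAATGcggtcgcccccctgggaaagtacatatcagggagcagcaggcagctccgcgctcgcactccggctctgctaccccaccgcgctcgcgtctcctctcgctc
The window of Cnn2 held a CArG box, CCTTATAAGG, whose first base lies at -56 from the start, and no other of the 11 windows held one. Tagln had no window, so its promoter was not searched for either motif. Across all 32851 RefSeq windows of this length 1.63% held a CArG box. CATTCC was found in 4 of the 11 windows, those of Tpm1 (1 match), Trim54 (2 matches), Tagln2 (2 matches) and 1 of the pair of Cald1 windows (1 match), and in 14.7% of all windows. The Tpm2 window held neither set of letters. The Trim54 window ends at 31116661, before that gene begins in GENCODE M21 at 31116712, so it holds no base of the counted gene. The motifs do not overlap each other in these windows.

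Tropomyosin transcripts differed by more than an order of magnitude in level, and the least abundant of them had the largest difference between groups. Tpm2, on chromosome 4 (43514711 to 43523765, minus strand, GRCm38), encodes the beta-tropomyosin of slow skeletal and smooth muscle. Its level was 7.53, 7.84 and 6.93 RPKM (reads scaled by gene length and by the assigned reads of the library) in OC replicates 1, 2 and 3, against 25.3, 31.3 and 29.2 RPKM in OCP replicates 1, 2 and 3. The OC libraries lay close together and all below the lowest OCP library, and the OCP mean was 3.84 times the OC mean (7.43 ± 0.466 RPKM in OC and 28.6 ± 3.05 RPKM in OCP, SD, n = 3 each). On the log2(RPKM + 1) scale the difference of OC minus OCP was -1.81 (SE 0.08), the fourth lowest of 12301 genes tested. The pseudocount of 1 shrinks the differences of low genes most, and ranks are given for this scale only. With a pseudocount of 0.1 the difference for Tpm2 was -1.92.

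Tpm1, on chromosome 9 (67022590 to 67049406, minus strand), encodes the alpha-tropomyosin of heart and fast muscle as well as many isoforms of other cells, with 16 protein-coding transcripts in GENCODE M21. It was read at 72.9, 78.1 and 71.7 RPKM in OC and at 99.3, 107 and 104 RPKM in OCP. The groups did not overlap, and the difference was smaller than that of Tpm2 (log2 difference -0.47, SE 0.05). The table gives 1 value per gene, so isoforms from alternative promoters and exons cannot be separated.

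The 2 most abundant tropomyosin genes differed little. Tpm4, on chromosome 8 (72134975 to 72153142, plus strand), makes a short tropomyosin found in osteoclast podosomes. It had 472, 475 and 489 RPKM in OC and 506, 486 and 516 RPKM in OCP, so 1 OC library lay above the lowest OCP library. By mean level it was the 108th gene of the table in OC and the 98th in OCP. Tpm3, on chromosome 3 (90072649 to 90100902, plus strand), encodes the gamma-tropomyosin of slow muscle and a short isoform that most cells make. It had 282, 316 and 262 RPKM in OC and 245, 263 and 247 RPKM in OCP, and the groups overlapped. The log2 difference was -0.07 (SE 0.04) for Tpm4 and 0.18 (SE 0.07) for Tpm3.

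**Figure D1:**
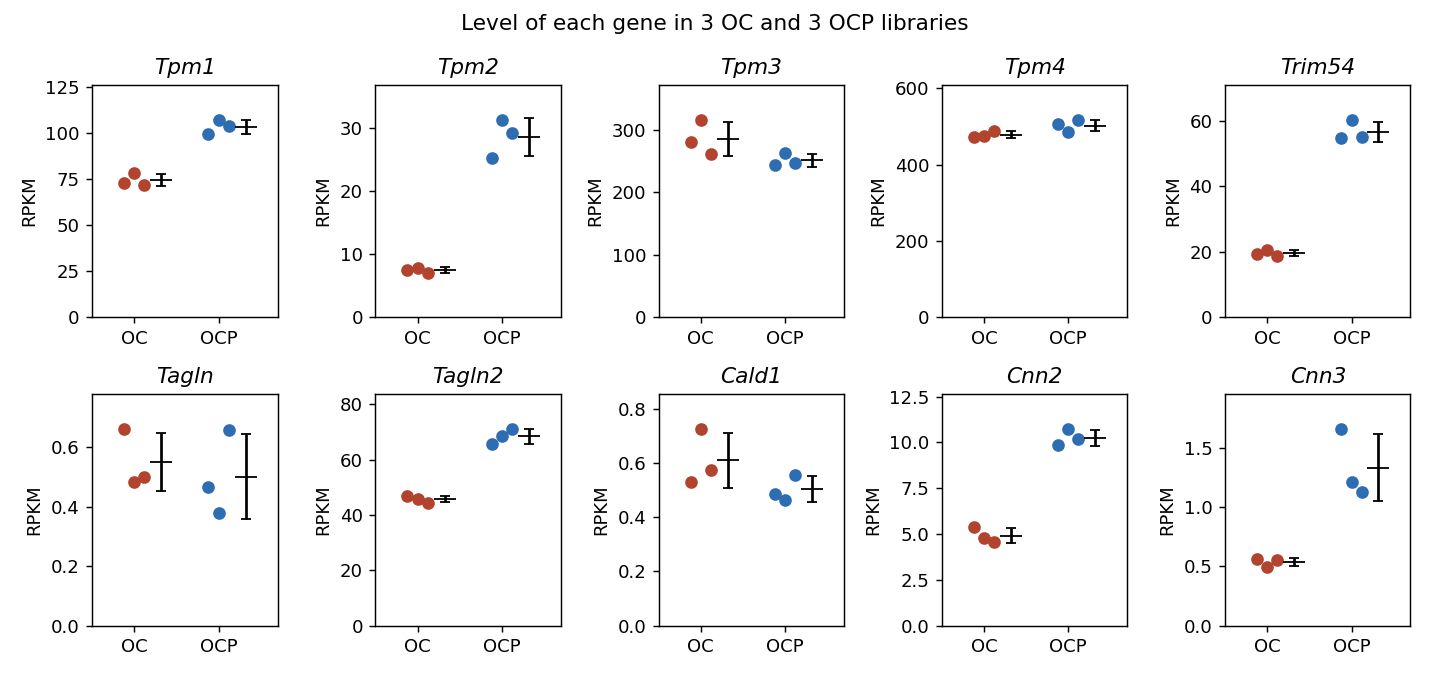
Level in RPKM (vertical axes from 0, own scale for each gene) of the 10 genes in 3 OC and 3 OCP libraries; points are libraries and the bar beside them is the mean with its SD. Tpm1, Tpm2, Trim54, Tagln2, Cnn2 and Cnn3 are lower in every OC library than in any OCP library, and the groups overlap for Tpm3, Tpm4, Tagln and Cald1.

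The 4 tropomyosin genes together came to nearly the same level in both groups while their proportions differed. The summed level was 834, 876 and 829 RPKM in OC and 875, 887 and 896 RPKM in OCP, with 1 OC library inside the OCP range. Tpm2 made up 0.878% ± 0.0369 of that sum in OC and 3.22% ± 0.321 in OCP (SD, n = 3 each), and Tpm1 made up 8.77% ± 0.131 in OC and 11.7% ± 0.355 in OCP. The share of Tpm3 was 33.8% ± 2.24 in OC and 28.4% ± 1.12 in OCP, and that of Tpm4 had a mean of 56.6% in OC and 56.7% in OCP. In RPKM, Tpm3 stood at 3.85 ± 0.199 times Tpm1 in OC and 2.43 ± 0.0494 times in OCP, and Tpm1 at 10.0 ± 0.341 times Tpm2 in OC and 3.63 ± 0.266 times in OCP. Shares and ratios between genes depend on gene length, merged over all exons: 6485 bases for Tpm1, 2909 for Tpm2, 6085 for Tpm3 and 2203 for Tpm4. By reads, Tpm3 lay above Tpm4 in every library, as with 59979 against 36423 in OC replicate 1.

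**Figure D2:**
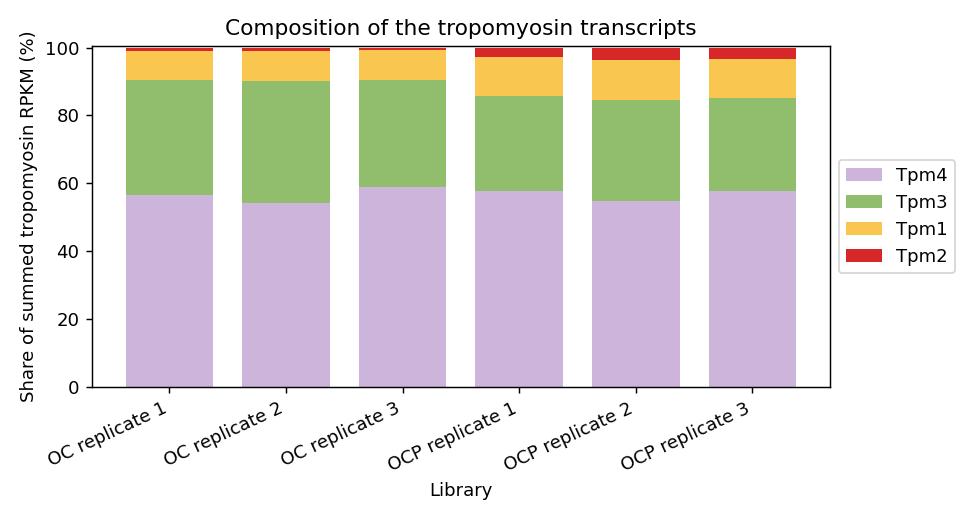
Share (%) of each tropomyosin gene in the summed RPKM of the 4 genes, 1 bar per library, OC libraries on the left. The Tpm2 segment is 0.835% to 0.903% in OC and 2.89% to 3.53% in OCP, and the Tpm4 segment spans 54.2% to 58.9% in OC and 54.8% to 57.8% in OCP.

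The coding sequences of the 4 genes are alike, at 73.2% (Tpm3 with Tpm4) to 77.3% (Tpm1 with Tpm4) identical aligned bases between the longest coding sequences in GENCODE M21. Whether they share stretches as long as a read was not tested. A closer copy exists for Tpm3. The retrogene Tpm3-rs7 on chromosome 14 is 99.1% identical to a Tpm3 transcript over 2108 bases, and the sources used here do not say how reads with several matches were counted. Both values are uncertain for that reason. Tpm3-rs7 was listed at 45.9, 47.2 and 42.6 RPKM in OC and at 30.9, 33.8 and 33.6 RPKM in OCP, all OC libraries above all OCP libraries (log2 difference 0.45, SE 0.06, adjusted p = 0.000339 in limma). With it added to the tropomyosins, the share of Tpm2 was 0.833% in OC and 3.11% in OCP. The processed pseudogene Gm7809, 96.8% identical to Tpm4 over 743 bases, was listed at 8.78 ± 0.839 RPKM in OC and 4.06 ± 0.382 RPKM in OCP, about 0.0183 times Tpm4 in OC and 0.00807 times in OCP.

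Trim54, on chromosome 5 (31116712 to 31137630, plus strand), had 19.3, 20.6 and 18.8 RPKM in OC and 54.8, 60.3 and 55.2 RPKM in OCP. The OCP mean was 2.90 times the OC mean and the replicates of each group lay close together. The log2 difference of -1.49 (SE 0.06) was the eighth lowest of the genes tested, on the same log2(RPKM + 1) scale. Its relatives, the muscle ubiquitin ligases Trim55 and Trim63, were both under 1 RPKM and were not tested, at 0.134 and 0.0811 RPKM in OC and 0.173 and 0.139 RPKM in OCP. The antisense gene Gm15469 covers 382 of the 1436 exon bases of Trim54, and the sources used here do not say whether strand was used in counting. Reads from those shared bases cannot be told apart. Gm15469 was listed at 4.88, 6.11 and 6.01 RPKM in OC and 13.1, 17.6 and 16.8 RPKM in OCP. Its ratio to Trim54 was 0.290 ± 0.0342 in OC and 0.279 ± 0.0348 in OCP (SD, n = 3 each).

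Tpm4 also overlaps an antisense gene, over a smaller part of its exons. The antisense gene Gm26586 shares 134 of the 2203 exon bases of Tpm4. It was listed at 288, 304 and 298 RPKM in OC and 312, 315 and 334 RPKM in OCP, which is 0.620 ± 0.0185 times Tpm4 in OC and 0.637 ± 0.0180 times in OCP. Over the 6 libraries the ratio ran from 0.609 to 0.648 for Gm26586 and from 0.239 to 0.320 for Gm15469, and in both cases the ranges of the groups overlapped.

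**Figure D3:**
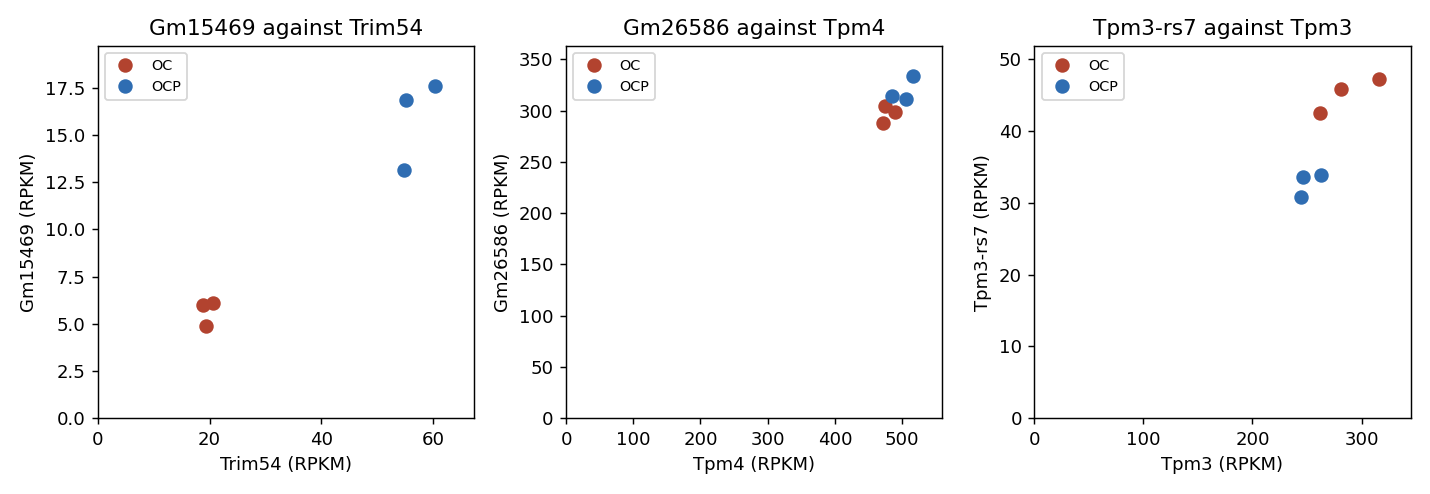
RPKM of Gm15469 against Trim54, Gm26586 against Tpm4 and Tpm3-rs7 against Tpm3, 1 point per library (3 OC, 3 OCP), axes from 0. Gm15469 and Trim54 are both low in the 3 OC libraries and both high in the 3 OCP libraries, Gm26586 stays between 0.609 and 0.648 times Tpm4, and Tpm3-rs7 is higher in OC at similar levels of Tpm3.

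Of the smaller actin-binding proteins, those made by blood cells were well above those that mark smooth muscle. Tagln2, on chromosome 1 (172500047 to 172507380, plus strand), is the transgelin of leukocytes. It had 46.7, 45.9 and 44.5 RPKM in OC and 65.7, 68.4 and 71.1 RPKM in OCP, with no overlap (log2 difference -0.57, SE 0.05). Tagln, on chromosome 9 (45929619 to 45936058, minus strand), which encodes the smooth muscle protein SM22-alpha, had 0.661, 0.485 and 0.502 RPKM in OC and 0.466, 0.380 and 0.657 RPKM in OCP. These values rest on 46, 32 and 38 reads in OC and 39, 30 and 48 reads in OCP, and no difference was detectable at this depth. Exons of Tagln are covered over 1241 of 1988 bases by the antisense gene Gm48529 and over 108 bases by Pcsk7.

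Cnn2, on chromosome 10 (79988584 to 79996062, plus strand), encodes calponin 2, an inhibitor of actin-activated myosin found in macrophages. It had 5.39, 4.80 and 4.56 RPKM in OC and 9.88, 10.7 and 10.2 RPKM in OCP, a log2 difference of -0.93 (SE 0.07). Cnn3, the acidic calponin on chromosome 3 (121426497 to 121458207, plus strand), was near the limit of the filter at 0.564, 0.496 and 0.553 RPKM in OC and 1.66, 1.21 and 1.13 RPKM in OCP. It was tested only because the 3 OCP libraries reached 1 RPKM, and its reads numbered 60, 50 and 64 in OC and 212, 146 and 126 in OCP. The pseudocount shrinks such low values, and its log2 difference of -0.59 (SE 0.09) was -1.15 with a pseudocount of 0.1. The opposite-strand gene Gm42928 covers 538 of the 3037 exon bases of Cnn3, and reads from those bases cannot be told apart. Gm42928 was listed at 0.143 RPKM in OC and 0.340 RPKM in OCP. The processed pseudogene Gm17936, 95.5% identical to Cnn3 over 994 bases, was listed at 0.0578 RPKM in OC and 0 RPKM in OCP. Cnn2 made up 89.3% ± 1.28 of the summed calponin RPKM in OC and 88.1% ± 2.48 in OCP, and the ranges of the groups overlapped. The calponin sum was 5.50 ± 0.431 RPKM in OC and 11.6 ± 0.313 RPKM in OCP. Cnn1, the smooth muscle calponin, was at 0.0468 RPKM in OC and 0.0495 RPKM in OCP.

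Cald1, on chromosome 6 (34598500 to 34775473, plus strand), had 0.531, 0.725 and 0.575 RPKM in OC and 0.487, 0.464 and 0.556 RPKM in OCP, on 224 to 290 reads in OC and 222 to 247 reads in OCP. The ranges overlapped, and with no filter the log2 difference was 0.10 (SE 0.07).

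Of the 10 genes, 8 passed the filter on low values (1 RPKM or more in 3 or more of the 6 libraries), and Tagln and Cald1 did not. Among these 8, 6 were past the threshold of an adjusted p of 0.05 with a lower value in OC, against 32.1% of all 12301 genes tested, and 0 with a higher value, against 23.5% (55.6% in either direction). OC lay wholly below OCP in the same 6 genes, against 36.0% of the genes tested, and wholly above in 0, against 26.7% (62.7% either way). Cnn3 is among the 6 and passed the filter only through OCP, so it had to lie lower in OC. Tpm2 and Trim54 were past the threshold with a log2 difference of -1 or less, as were 0.439% of the genes tested. Tpm3 and Tpm4 were the 2 not past the threshold, and that depended on the processing: Tpm3 was past it, with a higher value in OC, in 6 of 16 fits, and Tpm4, with a lower value, in 1 of 16. Since this contrast helped to choose the genes, nothing is read from these counts. The median log2 difference of the 8, Cnn3 included, was -0.58, beside -0.05 over all genes tested.

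The genes whose profile over the 6 libraries lay nearest to Tpm2 were Chac1, Trim54 and Mt3, and those nearest to Trim54 were Gm12892, Angpt2 and Mustn1. The measure was the root mean square difference of log2(RPKM + 1) values centred on their own mean, among 5202 genes with at least 10 RPKM in the higher group, and it was 0.10 for Chac1, 0.17 for Trim54 and 0.18 for Mt3. For Gm12892, a processed pseudogene, it was 0.10, for the angiopoietin gene Angpt2 0.11 and for Mustn1, which encodes a nuclear protein of developing muscle and skeleton, 0.12. Mustn1 had 11.8, 10.2 and 9.23 RPKM in OC and 29.3, 29.0 and 29.2 RPKM in OCP.

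Around these genes, 9 lists of contractile genes were counted in the same fit, with the 10 genes left out. Of 62 tested genes 20 passed with a lower and 8 with a higher value in OC, which is 32.3% and 12.9%, against 32.1% and 23.5% of all genes tested. The share of lower genes is that of the background, and the median log2 difference of the 62 was -0.05, and that of all genes tested was also -0.05 after rounding. Cdc42bpa, Cyr61 and Myom1 were tested only through the group where they are high, and without these 3 the counts were 18 lower and 7 higher of 59. The lists differed from one another in their counts, and no test compared them.

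SRF, its coactivators and well known targets held 8 genes lower and 0 higher among 11 tested, 72.7% lower beside 32.1% of all genes tested, with a median log2 difference of -0.51. Among the 8, the matricellular protein gene Cyr61 had no OC library at 1 RPKM and was tested only through OCP, so it had to differ, and without it 7 of 10 were lower. Fhl2, a LIM-domain protein of muscle and bone, fell to 0.978 ± 0.153 RPKM in OC, against 2.80 ± 0.242 RPKM in OCP (log2 difference -0.94, SE 0.08, adjusted p = 4.98e-05), and the focal adhesion gene Vcl to 24.6 ± 1.17 RPKM in OC, against 46.8 ± 0.482 RPKM in OCP (adjusted p = 3.4e-06). The most abundant, Csrp1, had 31.4 ± 1.44 RPKM in OC and 45.2 ± 0.930 RPKM in OCP (adjusted p = 7.32e-05). The gene Srf itself, named after its values were seen, had 7.28 ± 0.471 RPKM in OC and 9.44 ± 0.507 RPKM in OCP (adjusted p = 0.0027), while its coactivators Mkl1 and Mkl2 did not pass. This list was drawn up with earlier results of these data known and does not hold every SRF target. The muscle actin genes Acta1, Acta2 and Actc1, counted with the actins, did not pass (log2 differences 0.02, -0.03 and 0.03). Actb and Actg1 of that list were lower, and Tagln and Cnn1 were under the filter.

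Actin filament partners and competitors of tropomyosin were lower in 6 and higher in 2 of 12 tested. The severing protein gene Gsn fell to 103 ± 3.48 RPKM in OC, against 202 ± 6.94 RPKM in OCP (log2 difference -0.97, SE 0.05, adjusted p = 1.85e-06), and the crosslinker gene Actn1 to 126 ± 2.85 RPKM in OC, against 211 ± 10.8 RPKM in OCP. The formin genes went the other way, Diaph2 with 5.88 ± 0.432 RPKM in OC and 3.54 ± 0.380 RPKM in OCP, and Diaph1 with 56.4 ± 3.05 RPKM in OC and 45.6 ± 1.68 RPKM in OCP. Cfl1, the cofilin gene and the most abundant, did not pass at 556 ± 16.2 RPKM in OC and 583 ± 20.6 RPKM in OCP. The cytoplasmic actins Actb and Actg1 were the 2 of 5 tested actins that passed, and both were lower: Actg1 at 825 ± 22.9 RPKM in OC and 1327 ± 29.2 RPKM in OCP, and Actb at 1280 ± 52.1 RPKM in OC and 1646 ± 56.9 RPKM in OCP.

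Myosin II chains passed in 3 of 5 tested cases. The heavy chain gene Myh9 had 293 ± 11.4 RPKM in OC and 350 ± 18.1 RPKM in OCP, and the essential light chain gene Myl6, the most abundant, 949 ± 49.8 RPKM in OC and 1127 ± 24.9 RPKM in OCP. The regulatory light chain gene Myl12b rose to 66.2 ± 3.36 RPKM in OC, against 45.4 ± 1.77 RPKM in OCP. Myl12a, another regulatory light chain gene and the more abundant, did not pass at 108 ± 3.23 RPKM in OC and 105 ± 2.84 RPKM in OCP. Of 12 regulators of light chain phosphorylation 2 rose, the phosphatase subunit genes Ppp1r12c (23.4 ± 0.282 RPKM in OC and 19.1 ± 1.06 RPKM in OCP) and Ppp1r12b (12.3 ± 0.246 RPKM in OC and 10.3 ± 0.402 RPKM in OCP). The kinase genes Dapk3 (38.3 ± 1.66 RPKM in OC and 56.8 ± 3.22 RPKM in OCP) and Cdc42bpa (0.810 ± 0.0611 RPKM in OC and 1.20 ± 0.138 RPKM in OCP) fell, but Cdc42bpa was tested only because the OCP libraries reached 1 RPKM. The most abundant of them, the phosphatase inhibitor gene Ppp1r14b, had 108 ± 4.91 RPKM in OC and 109 ± 10.3 RPKM in OCP.

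Among the tropomodulins and leiomodins, which act at the pointed end of tropomyosin-coated filaments, 1 of 3 tested passed. It was Tmod3, the widely expressed tropomodulin, with 13.5 ± 1.03 RPKM in OC and 10.4 ± 0.683 RPKM in OCP (adjusted p = 0.0039). Of the close relatives only the smoothelin gene Smtn was tested, and it did not pass (2.48 ± 0.286 RPKM in OC and 3.07 ± 0.503 RPKM in OCP, adjusted p = 0.107).

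Troponins, the calcium sensors that act on tropomyosin in striated muscle, held the largest difference in all 9 lists. Tnni2, the inhibitory troponin of fast skeletal muscle on chromosome 7 (142441808 to 142444410), rose to 29.7 ± 3.58 RPKM in OC, against 1.54 ± 0.0675 RPKM in OCP (log2 difference 3.59, SE 0.08, adjusted p = 3.16e-08). Its partners in fast muscle, Tnnt3 and Tnnc2, were under 1 RPKM in every library and were not tested. The other 4 tested troponins did not pass, and Tnnc1, the most abundant by its mean over the 6 libraries, had 18.6 ± 2.75 RPKM in OC and 19.1 ± 1.36 RPKM in OCP.

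Sarcomere genes were lower in 0 and higher in 1 of 8 tested. The M-band gene Myom1 had 1.12 ± 0.0548 RPKM in OC and 0.312 ± 0.101 RPKM in OCP (adjusted p = 0.000186) and was tested only because the OC libraries reached 1 RPKM, so its call carries little weight. The heart myosin gene Myh6, the most abundant, did not pass at 41.9 ± 4.16 RPKM in OC and 42.5 ± 3.91 RPKM in OCP. In a set of 10 heart muscle genes picked from the lists after their values were seen (Myh6, Myh7, Tnnt2, Tnni3, Tnnc1, Myl2, Myl3, Actc1, Csrp3 and Actn2) the summed level was 119, 133 and 107 RPKM in OC and 127, 109 and 120 RPKM in OCP, so the groups overlapped. Because the choice followed the values, nothing is read from that overlap. Left out of the sum and under the filter were Ttn and Tcap, whose groups overlapped, and Ldb3, wholly higher in OC (0.260 RPKM, against 0.167 RPKM in OCP). Other heart genes, likewise chosen afterwards, were the myoglobin gene Mb at 7.20 ± 0.219 RPKM in OC and 7.09 ± 0.612 RPKM in OCP, Mybpc3 at 2.25 ± 0.0977 RPKM in OC and 2.29 ± 0.143 RPKM in OCP, Nppa at 1.48 ± 0.0964 RPKM in OC and 1.09 ± 0.326 RPKM in OCP, and Ryr2 at 0.272 ± 0.0126 RPKM in OC and 0.252 ± 0.0255 RPKM in OCP. Nppa was higher in every OC library than in any OCP library but did not pass, and the groups overlapped for Mb, Mybpc3 and Ryr2. Tpm1 and Trim54 are known to be expressed in heart as well, and how far these transcripts enter their levels was not tested.

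**Figure D4:**
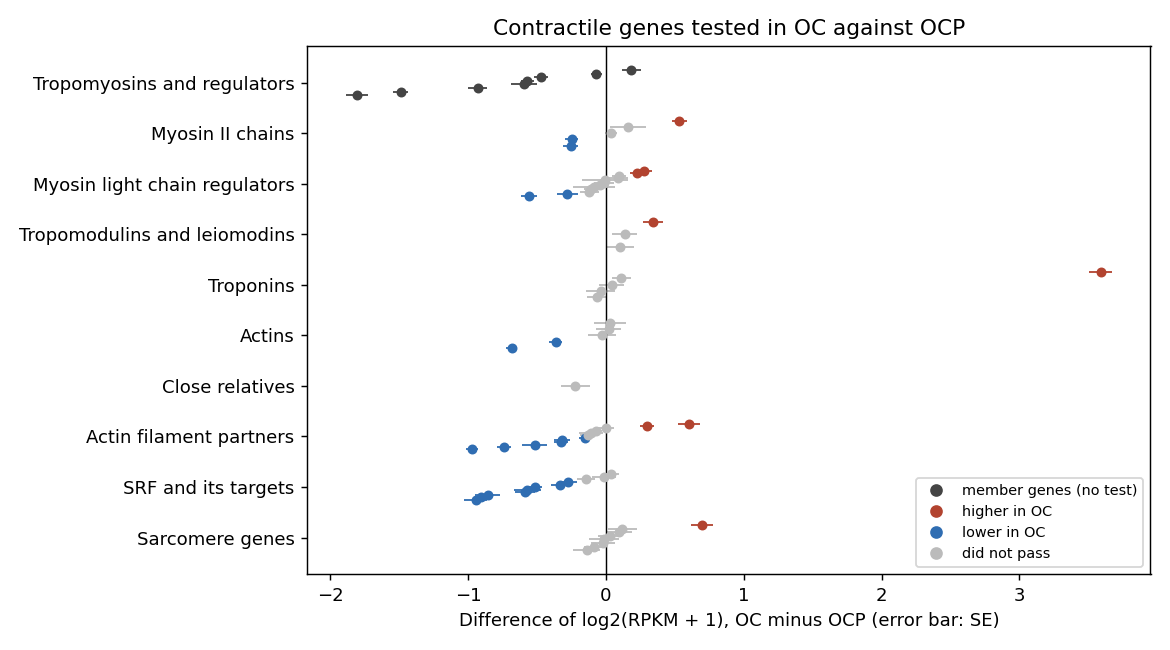
Difference of log2(RPKM + 1), OC minus OCP, with its SE for each gene in the fit, 1 row for the 8 tropomyosins and regulators that passed the filter (dark grey, shown without a call) and 1 for each of 9 contractile lists (red higher in OC, blue lower in OC, light grey did not pass). Tnni2 stands alone at 3.59, and the SRF row holds 8 blue points and 0 red points.

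Markers of stromal and mural cells, which express Tagln, Cald1, Tpm2 and Cnn1, were low: 13 of 14 were listed, 0 of them passed the filter, 0 were listed at 0 in all 6 libraries, and their summed level was 3.39 to 3.72 RPKM in OC and 3.29 to 3.49 RPKM in OCP. Endothelial markers summed to 2.40 to 2.79 RPKM in OC and 2.84 to 3.11 RPKM in OCP, with Kdr the only one tested and not past the threshold (adjusted p = 0.206). Of the platelet markers Pf4, which was higher in OC, held nearly all of a sum of 89.1 to 91.4 RPKM in OC and 36.1 to 37.3 RPKM in OCP, and 4 others of this list were under the filter. By the table's own exons, Actg1, Cdc42bpa, Dapk3, Ppp1r12b, Smtn, Vcl, Acp5 and Csf1r overlap another listed gene, so their values are uncertain to that extent.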

How the data were processed

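The deposited table gave RPKM values, which the authors scaled by gene length and by reads assigned to genes, for 3 OC and 3 OCP libraries. Gene lengths are other values given per the file headers. Per the submitters' processing notes, Trimmomatic 0.36, STAR 2.5.3a and featureCounts were used, and the build named is GRCh38. The coordinates are those of mouse genes, and start, end and exon length of all 10 genes equalled GENCODE M21 on GRCm38. For 14 of the 38 other genes that the naming rule picked, the length in the table differed from that annotation (Myl6 has 665 bases in the table and 3187 in GENCODE M21), which bears on their RPKM level and on which gene is the most abundant. Strand setting and treatment of multiply mapped reads are not given in the sources used here.

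RPKM times length gave whole reads for 100% of values within 0.01 reads. Low read counts were often even, as in every library for Cnn3. Whether mates of a pair were counted separately was not tested, so fragments may be fewer than the reads given. Genes that reached 1 RPKM in 3 or more libraries were compared on log2(RPKM + 1) with limma 3.58.1 (R 4.3.3, intensity trend, robust option, Benjamini-Hochberg over 12301 genes, two-sided, threshold 0.05). The steps were tested on simulated data. The design foresaw protein identities, which were not used here; coding sequences were aligned with biopython 1.88 instead, and transcripts compared by blastn 2.17.0 (at least 90% identity over 150 bases).

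The members and lists were chosen with earlier results of these data known. Named genes are all members, of each list the 2 called genes with the largest rise, the 2 with the largest fall and the most abundant tested gene, and the 3 nearest profiles to Tpm2 and to Trim54. Genes named beyond that rule were added after their values were seen. The alternatives tried were TMM and quantile scaling, pseudocounts of 0.1 and of 0.01, the filter dropped or replaced by a mean of 5 RPKM or more, no trend or robust option, voom on recovered reads, the replicate number as a block, and each library left out.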

Additional observations from a re-analysis of the deposited data

How the results depend on the processing

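The 6 genes lower in OC among the 8 tested (Tpm1, Tpm2, Trim54, Tagln2, Cnn2 and Cnn3) kept a negative log2 difference in every alternative in which they were tested, from -1.94 to -1.74 for Tpm2 and from -1.54 to -1.43 for Trim54. Cnn3 ranged from -1.28 to -0.50 and was not tested with a mean of at least 5 RPKM. Tpm3 ranged from 0.11 to 0.25 and was past the threshold with a mean of 5 RPKM or more (0.18), quantile (0.22) and TMM (0.23) scaling, the replicate block (0.18), voom (0.23) and without OC replicate 3 (0.25). Tpm4 ranged from -0.15 to -0.03 and was past it with quantile scaling (-0.15). Over all genes, 1645 were higher in OC with a mean of at least 5 RPKM, against 2889, with fewer genes tested (7228 against 12301). Leaving out 1 library gave 2524 to 2932 genes higher and 3370 to 3784 lower, and 8 to 9 higher and 19 to 22 lower in the contractile lists. With the replicate number as a block 2827 genes were higher and 3851 lower, and the contractile lists again had 8 higher and 20 lower, so the block moved no count by over 1.5 times. Deviations of same-numbered libraries from their group means correlated at -0.11, 0.14 and 0.01, and not every library correlated best with its own number. With 3 libraries per group these values cannot show whether same-numbered libraries share a mouse or culture, and the labels do not say. The count model voom on the recovered reads gave 3448 genes higher and 3647 lower. Depth limits Tagln, with 30 to 48 reads per library, and Cnn3, with 50 to 212.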
